A study of Mus musculus with 105 samples.

Results

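The mRNAs of the constitutive 26S proteasome were followed across mouse livers that lacked 1 of 4 signalling proteins and had been given the liver carcinogen diethylnitrosamine (DEN). Rows were taken by symbol, all names of the form Psma, Psmb, Psmc or Psmd followed by a number, and the inducible subunits Psmb8, Psmb9 and Psmb10 were set aside. This left 36 of 12966 genes, of 39 that matched the pattern. Bulk liver RNA was measured in 105 libraries, which fell into 30 groups and 2 sequencing groups. In sequencing group 1 the genotypes were Ikk KO (IKO), Shp2 KO (SKO) and WT, with 4 libraries in each group. In sequencing group 2 they were beta catenin KO (BKO), cMet KO (MKO) and WT, with 3 libraries in each group. Every genotype was sampled at 1, 3 and 5 months of age and at 8 months, the last as non-tumour liver and as tumour. DEN treatment was common to all groups, WT included, so no untreated liver stands behind any value. The series title places the losses in hepatocytes, and the labels used here name no Cre line, no promoter, no IKK subunit and no sex. They also do not say that each library came from a separate animal, so p-values measure the spread between libraries.

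The proteasome is the protease that degrades proteins tagged with ubiquitin. Its 20S core is a barrel of stacked rings, with alpha subunits that gate the entrance and beta subunits that enclose the proteolytic chamber, and a 19S cap recognises, deubiquitinates, unfolds and threads in the substrate. In many cells the subunit genes are induced together by the transcription factor NRF1 (Nfe2l1) when proteasome activity falls short, and in liver NRF1 is known to protect hepatocytes from steatosis and stress.

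By role, the 36 genes were the 7 alpha subunits Psma1 to Psma7, the 3 catalytic beta subunits Psmb5, Psmb6 and Psmb7, the 4 structural beta subunits Psmb1 to Psmb4, the 6 ATPases of the cap Psmc1 to Psmc6, the 3 non-ATPase subunits of its base Psmd1, Psmd2 and Psmd4, and the 8 subunits of its lid Psmd3, Psmd6, Psmd7, Psmd8, Psmd11, Psmd12, Psmd13 and Psmd14. The rule also took in the 3 assembly chaperones Psmd5, Psmd9 and Psmd10, which leave the finished cap. It took in Psma8, an alpha subunit known from testis, and Psmc3ip, a partner of a recombinase in meiosis that carries the prefix but belongs to no proteasome. All 36 remained after the filter on low values. Libraries had a median of 1 read for Psma8 and 1 read for Psmc3ip. For the other 34 genes the median ran between 31 reads for Psmc6 and 3608 reads for Psma6. The libraries count transcript 3′ ends, so reads of different genes depend on their 3′ ends and were not compared as levels.

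RefSeq start-site windows of 300 bases, 250 before and 50 after the start (GRCm38.p6), were found for 29 of the 36 genes. The antioxidant response element core, searched as TGACNNNGC or TGAGNNNGC on both strands and bound by NRF1 in other settings, was in 14 of these 29 windows (48.3%), against 27.7% of all 27025 windows of the same length. Where a gene had several windows, the first was counted. The first window of Psmc2 lacked the core and its second held it, and both windows of Psma6 held it. The GC box GGCGGG, also on both strands, was in 72.4% of the 29 windows, against 35.5% of all. A match to these letters is a description and not evidence of binding. Of the 12 genes with a window that were higher in 1-month SKO liver, described below, 6 held the antioxidant core, among them that of Psmc3ip, and of the other 17 members 8 did. The 6 windows that follow are examples, and they hold the core more often than the 12 higher genes do. Psmb4, Psmc4, Psmc5, Psmd4 and Psmd8, also higher in that comparison, held no match and are not shown. Shown are Psmd12, Psmd13 and Psmd14 of the lid and the chaperone Psmd5, all higher in that comparison. The others are Psmb3, the one gene lower there, and Psma5, the gene higher in MKO liver. Each reads 5′ to 3′ on the gene's strand, and capitals mark the antioxidant core on either strand.
Psmd12, chr11:107479278-107479577 (plus strand): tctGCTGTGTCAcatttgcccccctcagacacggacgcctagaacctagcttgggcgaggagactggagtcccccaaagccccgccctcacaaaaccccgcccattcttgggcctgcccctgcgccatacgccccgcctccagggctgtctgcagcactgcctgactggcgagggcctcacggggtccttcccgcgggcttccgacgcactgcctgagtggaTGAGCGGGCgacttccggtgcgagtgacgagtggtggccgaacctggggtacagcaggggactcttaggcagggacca
Psmd13, chr7:140882144-140882443 (plus strand): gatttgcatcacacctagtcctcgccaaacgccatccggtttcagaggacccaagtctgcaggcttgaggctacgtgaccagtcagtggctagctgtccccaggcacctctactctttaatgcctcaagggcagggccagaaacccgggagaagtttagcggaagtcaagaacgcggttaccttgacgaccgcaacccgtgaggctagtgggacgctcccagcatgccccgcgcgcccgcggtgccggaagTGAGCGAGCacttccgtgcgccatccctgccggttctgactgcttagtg
Psmd5, chr2:34870913-34871212 (minus strand): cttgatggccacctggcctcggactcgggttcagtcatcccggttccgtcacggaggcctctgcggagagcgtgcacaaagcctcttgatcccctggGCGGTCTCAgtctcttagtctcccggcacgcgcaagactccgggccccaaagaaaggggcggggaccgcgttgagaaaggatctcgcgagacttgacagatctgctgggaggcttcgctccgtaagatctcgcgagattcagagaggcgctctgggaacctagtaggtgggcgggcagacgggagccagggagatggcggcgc
Psmd14, chr2:61711444-61711743 (plus strand): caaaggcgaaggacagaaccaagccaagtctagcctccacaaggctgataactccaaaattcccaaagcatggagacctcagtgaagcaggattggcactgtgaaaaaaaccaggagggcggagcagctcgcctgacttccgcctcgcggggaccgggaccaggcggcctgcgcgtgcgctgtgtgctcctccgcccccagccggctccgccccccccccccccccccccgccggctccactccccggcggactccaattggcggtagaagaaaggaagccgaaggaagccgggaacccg
Psmb3, chr11:97703184-97703483 (plus strand): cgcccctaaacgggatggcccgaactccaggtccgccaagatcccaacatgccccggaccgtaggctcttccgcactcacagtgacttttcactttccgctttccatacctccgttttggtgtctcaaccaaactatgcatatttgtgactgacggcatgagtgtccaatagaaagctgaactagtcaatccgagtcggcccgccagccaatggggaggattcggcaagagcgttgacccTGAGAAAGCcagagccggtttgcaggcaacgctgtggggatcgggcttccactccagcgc
Psma5, chr3:108256676-108256975 (plus strand): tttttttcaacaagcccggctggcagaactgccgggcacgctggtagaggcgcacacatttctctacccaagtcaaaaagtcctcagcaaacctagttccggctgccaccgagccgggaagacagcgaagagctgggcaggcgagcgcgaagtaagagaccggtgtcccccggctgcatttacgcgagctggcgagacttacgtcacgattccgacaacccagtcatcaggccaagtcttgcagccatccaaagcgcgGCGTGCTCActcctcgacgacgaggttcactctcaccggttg
Psmd12 carried 2 matches and Psmd14 none.

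Reads summed over genes ran between 4676444 and 10863046 per library in sequencing group 1 and between 6650086 and 20231121 in sequencing group 2, and the 36 genes together drew 11763 to 44461 of them. Values are given as reads divided by the authors' size factors, called normalised reads, and differences are on the deposited log2 scale, which compresses low values. The targeted genes gave a partial check of the labels. Ikbkb was taken as the gene of IKO, which is an assumption, since the labels name no IKK subunit. Ptpn11, which encodes SHP2, was lower in SKO than in WT over the non-tumour stages (difference -1.12 ± 0.08 SE, limma adjusted p = 6.18e-16). The library labelled SKO, 3 months, replicate 2 went against its label, with 375.1 normalised reads of Ptpn11, inside the 350.1 to 387.7 of WT at 3 months. Over the non-tumour stages Ikbkb differed by -0.32 in IKO and Met by -0.31 in MKO (limma adjusted p = 0.00258 and 0.0118). At 3 months alone neither loss showed in the means. Ikbkb averaged 352.9 normalised reads in IKO and 340.4 in WT at that age, and Met 223.1 in MKO and 224.3 in WT. Ctnnb1 differed by -0.01 in BKO (limma adjusted p = 0.931), and a 3′-end count can include a transcript that lost an inner exon. Non-tumour livers at 8 months of sequencing group 1 stood apart in all 3 genotypes. Between them and 5-month livers 22 members were called in IKO, 17 in SKO and 16 in WT, and 28.4%, 25.8% and 21.7% of all genes were called in those comparisons. In sequencing group 2 no member was called by limma between these ages in BKO, MKO or WT, where 4, 3 and 3 members had an unadjusted p under 0.05 and 0.0771%, 6.49% and 0.0386% of all genes were called. In WT the step from 5 to 8 months differed between the sequencing groups in 10 members (8.16% of all genes). The samples also differ in which cells they hold, and in bulk RNA fewer cells of a type and less RNA per cell cannot be told apart.

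**Figure D1:**
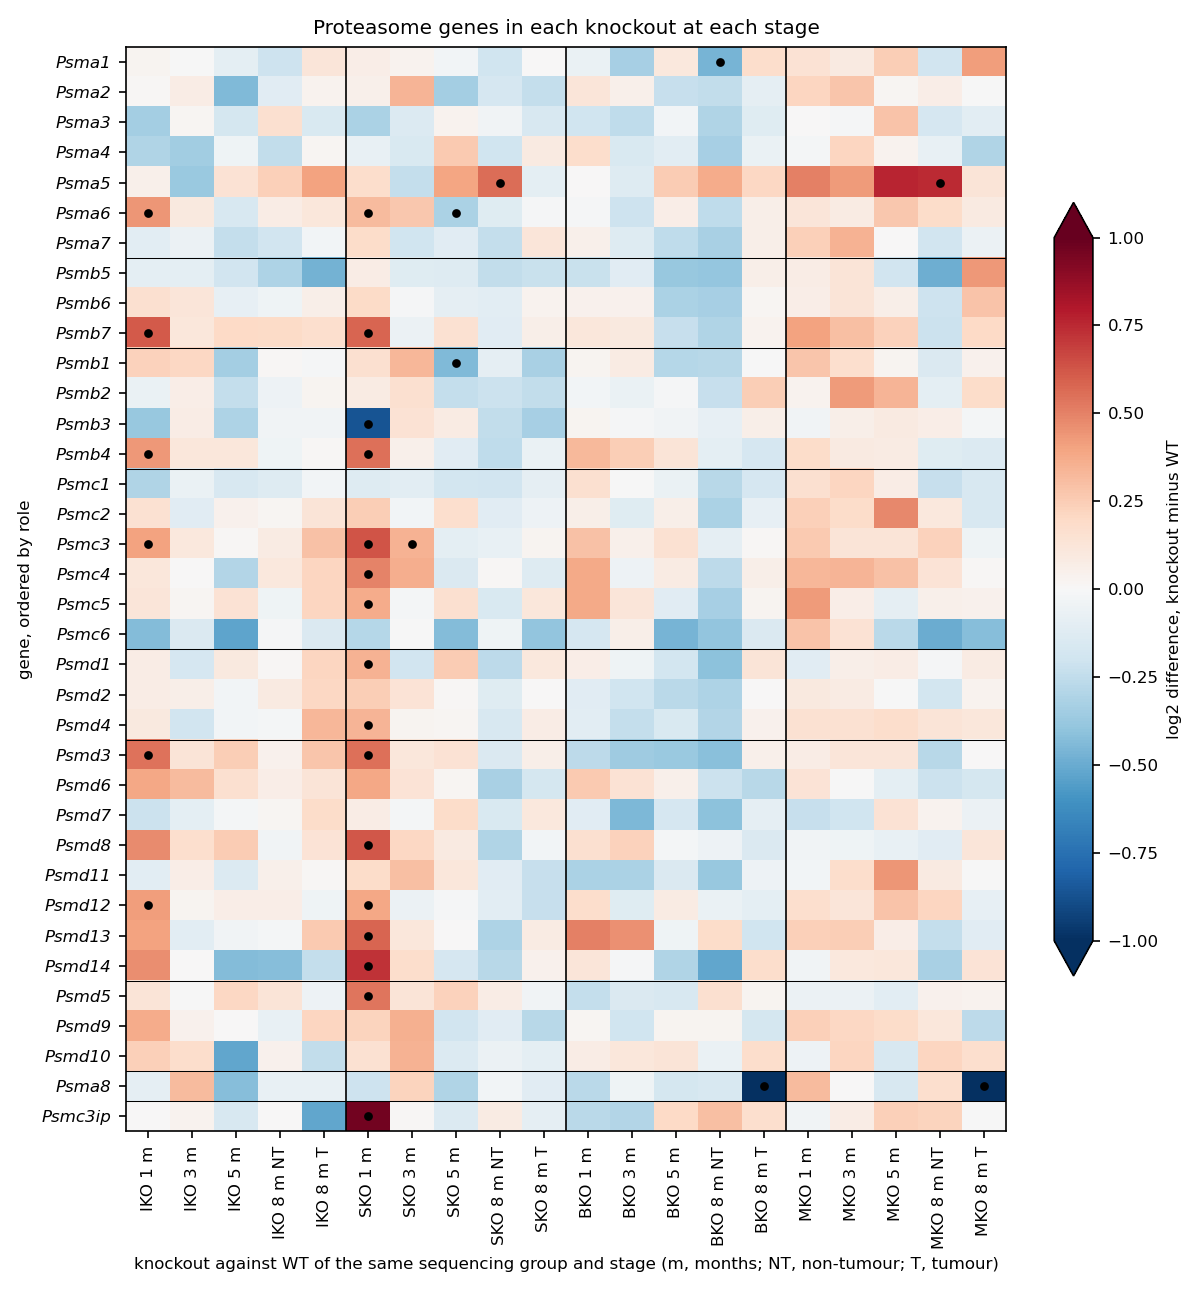
Differences in deposited log2 value of the 36 genes, grouped by role, for each knockout minus WT of the same sequencing group at each stage, with the colour scale ending at -1 and 1 and dots on the calls at an adjusted p below 0.05. The column of SKO at 1 month holds 16 dots, and the low block of Psma8 in BKO and MKO tumours passes the end of the scale.

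The share of all reads that fell on the 36 genes moved by genotype. In SKO liver at 1 month it was 0.308% in the lowest library, 0.343% at the median and 0.367% in the highest, and WT liver at 1 month had 0.228%, 0.241% and 0.255%. The groups did not overlap, and the means were 0.340% ± 0.0248 in SKO and 0.241% ± 0.0112 in WT (SD, n = 4 each). IKO liver of the same age averaged 0.252% ± 0.00521 (SD, n = 4). At 5 months SKO averaged 0.275% and WT 0.224%, and at 8 months the non-tumour livers averaged 0.274% in SKO and 0.275% in WT. In sequencing group 2 the share in BKO livers averaged 0.210%, 0.204%, 0.236% and 0.217% at 1, 3, 5 and 8 months, and in MKO livers 0.261%, 0.281%, 0.271% and 0.260%. WT livers had 0.226%, 0.244%, 0.231% and 0.262%. At 1 and 3 months every MKO library lay above every BKO library.

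Shares move with the few most abundant liver mRNAs. The 10 most abundant genes took 33.2% of reads in SKO at 1 month and 40.7% in WT at 1 month. For that reason the tests used size-factor values, and scaling to total reads was tried as an alternative. Under that scaling the median over all genes at 1 month moved to 0.21 for SKO and to -0.12 for IKO, and the median of the members to 0.46 and -0.01. Relative to the shift of all genes the members stayed higher in SKO. In 5-month SKO liver the same scaling moved all genes by 0.38.

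**Figure D2:**
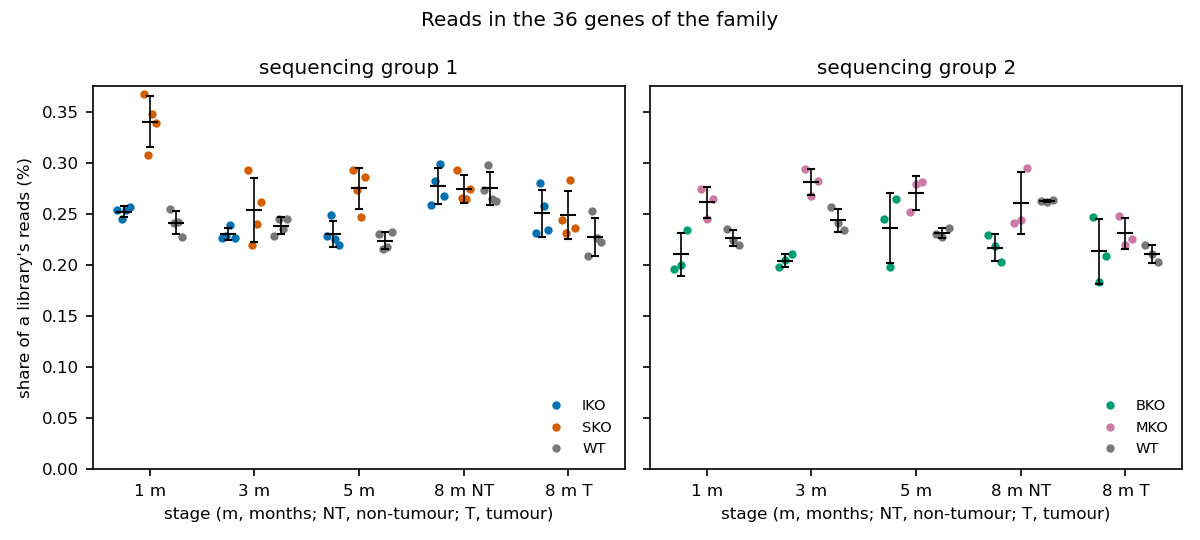
Percent of each library's reads on the 36 genes, by genotype and stage, with 1 point per library and bars for the group mean and SD. SKO at 1 month averages 0.340% and WT at 1 month 0.241%, and BKO livers lie below MKO livers at 1 and 3 months.

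SKO liver at 1 month held more called members than any other comparison of a knockout with WT, most of them genes of the cap. Of the 36 genes 15 rose and 1 fell, and 16.1% of all genes were called in this comparison, 8.74% higher and 7.34% lower. The median difference of the 36 genes was 0.23, and that over all genes 0.00, with 30 of the 36 above 0. By role, 5 of 8 lid genes, 3 of 6 ATPases, 2 of 3 other base subunits and 1 of 3 assembly chaperones rose. In the 20S core 1 of 7 alpha, 1 of 3 catalytic beta and 1 of 4 structural beta genes rose, and 1 structural beta gene fell.

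Psmc3, an ATPase of the ring that unfolds substrates, had 900.3, 825.2, 914.6 and 872.7 normalised reads in SKO, against 539.7, 578.3, 548.4 and 558.9 in WT. All SKO libraries lay above all WT libraries, and the difference was 0.63 ± 0.11 (SE, limma adjusted p = 4.56e-05). Psmc4 and Psmc5 of the same ring rose by 0.50 and 0.37. Psmd14, the deubiquitinase of the lid, had 208.0, 229.9, 227.5 and 229.4 normalised reads in SKO, against 118.8, 90.2, 162.2 and 138.1 in WT. Again the groups did not overlap, and the difference was 0.72 ± 0.18 (SE, limma adjusted p = 0.00354). Of the other lid genes, Psmd8 rose by 0.62, Psmd13 by 0.58, Psmd3 by 0.55 and Psmd12 by 0.38, with adjusted p between 0.00605 and 0.0216. In the base, the ubiquitin receptor Psmd4 rose by 0.34 and the scaffold Psmd1 by 0.35, and their adjusted p of 0.0335 and 0.048 stood closest to the threshold. Psmd5, a chaperone of base assembly, rose by 0.54 (limma adjusted p = 0.0103).

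In the core, Psmb4 had 1298, 1466, 1740 and 1491 normalised reads in SKO, against 1062, 940.9, 959.5 and 1090.5 in WT. The SKO libraries were all higher, with a difference of 0.55 ± 0.12 (SE, limma adjusted p = 0.00152). Psmb3, another structural subunit of the beta ring, had 62.0, 78.4, 77.7 and 34.0 normalised reads in SKO, against 140.6, 138.2, 113.5 and 131.5 in WT. It fell by 0.86 ± 0.18 (SE, limma adjusted p = 0.00043), with all SKO libraries below all WT libraries. Psmb7, the catalytic subunit with trypsin-like activity, rose by 0.58, and the alpha subunit Psma6 by 0.32. The other catalytic genes, Psmb5 and Psmb6, were not called.

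Psmc3ip, the gene outside the proteasome, had 7.30, 9.30, 13.5 and 11.9 normalised reads in SKO at 1 month, against 0, 1.96, 0 and 1.10 in WT. It rose by 0.96 ± 0.18 on the deposited scale (SE, limma adjusted p = 0.000172), and it counts among the 15. The last 500 bases of its gene overlap Mlx on the other strand. Those of Psmc3 overlap Slc39a13, those of Psmb7 Nek6 and those of Psma3 3110056K07Rik, also on the other strand. Reads could be shared where counting ignored strand. Psmd1 overlaps Gm21972 on its own strand, and Psmb5, Psmb6 and Psmb7 have named pseudogenes, so their counts are uncertain. One WT library weighed on the count at 1 month. Replicate 2 had 71.5 normalised reads of Psmb7 and 90.2 of Psmd14, the lowest of the 4, and without it 10 members were called, and Psmd1, Psmd3, Psmd8, Psmd12, Psmd13 and Psmb7 were not.

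**Figure D3:**
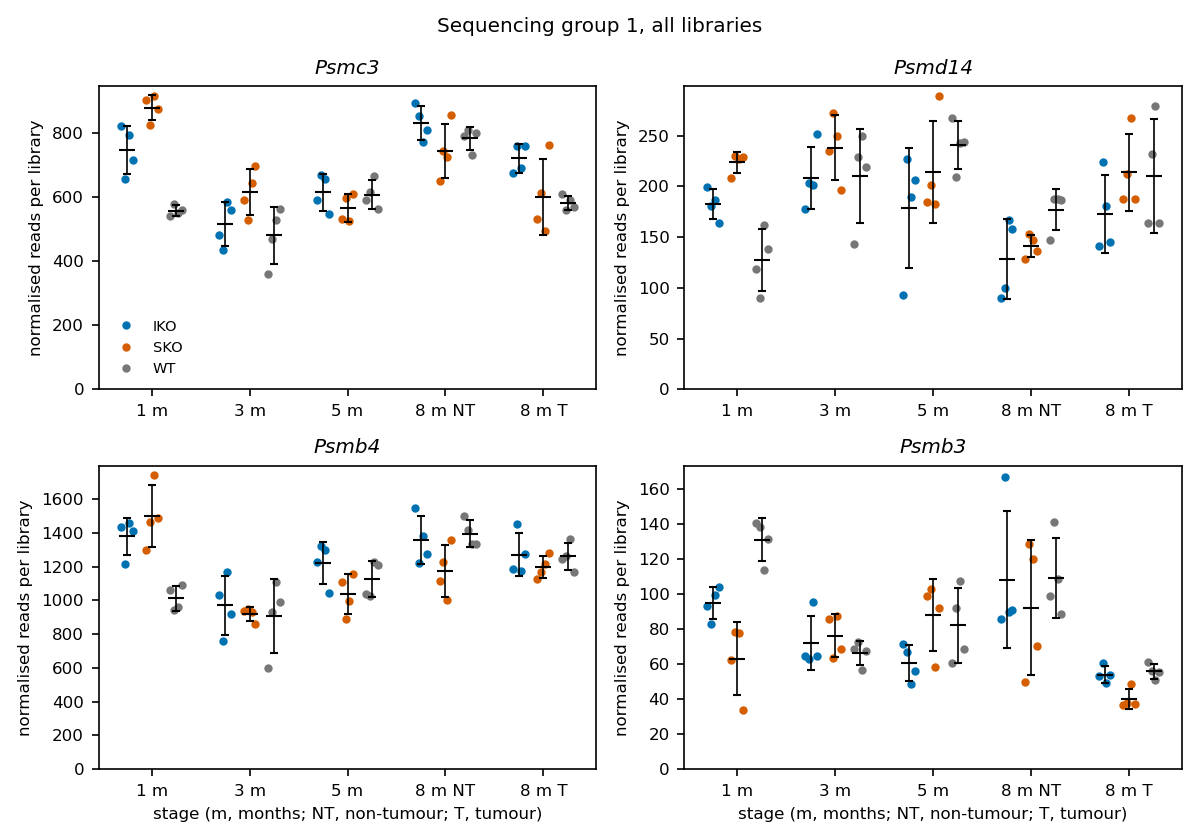
Normalised reads per library of Psmc3, Psmd14, Psmb4 and Psmb3 in IKO, SKO and WT of sequencing group 1 at each stage, with 1 point per library and bars for the mean and SD. At 1 month Psmc3, Psmd14 and Psmb4 of SKO lie above WT and Psmb3 lies below.

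The effect of the Shp2 loss differed between stages. The test of a difference between the 4 non-tumour stages called 9 members, and 5.68% of all genes, and the 9 were Psma6, Psmc3, Psmb4, Psmb1, Psmc3ip, Psmb3, Psmd14, Psmd1 and Psmd8. The count was 3 with quantile normalisation and 15 with total reads as the scale. Without replicate 4 of SKO at 1 month, the library with the lowest Psmb3, the count was 5. Psmc3 differed by 0.63, 0.35, -0.10 and -0.08 at 1, 3, 5 and 8 months, and Psmd14 by 0.72, 0.18, -0.17 and -0.27. At 3 months Psmc3 was the 1 member called, and it rose (adjusted p = 0.0491), where 5.19% of all genes were called, 2.99% higher and 2.2% lower. That call was lost when any of 5 libraries was left out (replicates 1, 3 and 4 of SKO and 1 and 2 of WT). Without the library whose Ptpn11 went against its label, 2 members were called at 3 months.

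At 5 months 2 members fell and none rose, and 6.02% of all genes were called, 2.61% higher and 3.41% lower. Psma6, the alpha subunit with the most reads, had 3439, 3489, 3539 and 4193 normalised reads in SKO, against 4628, 4414, 4672 and 4467 in WT. All SKO libraries were lower, with a difference of -0.31 ± 0.09 (SE, limma adjusted p = 0.0179), where the same gene had risen at 1 month. Psmb1, a structural beta subunit, had 922.8, 948.3, 872.7 and 1175.4 normalised reads in SKO, against 1449, 1207.5, 1320.5 and 1374 in WT. It fell by 0.44 ± 0.12 (SE, limma adjusted p = 0.0174). Both falls depend on the scaling. With total reads as the scale 11 members were higher in SKO at 5 months, none was lower and the difference of Psma6 was 0.051. With quantile normalisation none was called. Without replicate 1 or 3 of SKO the count was 0, and without replicate 2 of SKO or replicate 1 or 3 of WT it was 1.

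In non-tumour liver at 8 months 1 member rose in SKO, and 5.03% of all genes were called, 2.54% higher and 2.49% lower. It was Psma5, with 59.5, 75.8, 84.8 and 87.5 normalised reads in SKO, against 37.3, 48.7, 53.6 and 38.9 in WT. The difference was 0.56 ± 0.17 (SE, limma adjusted p = 0.0386), without overlap, and the call was lost without replicate 2, 3 or 4 of SKO or 1 or 4 of WT. Only 4 of the 36 genes lay above 0 at that stage, with a median of -0.13. Over the 4 stages together 4 members rose and none fell, and 22.9% of all genes were called, 12% higher and 10.9% lower. They were Psmc3 (0.20), Psmd5 (0.24), Psmc4 (0.18) and Psma5 (0.22), with adjusted p between 0.0052 and 0.0472. The count was 2 without replicate 4 of SKO at 5 or 8 months, replicate 1 or 4 of WT at 1 month, or replicate 4 of WT at 5 months. With total reads as the scale, which moved all genes by 0.18, 23 members were higher.

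Lists of other genes of protein handling gave mixed counts in SKO liver at 1 month, where 8.74% of all genes were called higher and 7.34% lower. Of the CCT chaperonin, which folds actin, tubulin and other proteins, 6 of 8 subunits rose and 1 fell, with a median of 0.49 against 0.00 over all genes, led by Cct3 (0.84) and Cct5 (0.73). Among 12 factors that carry or extract ubiquitinated proteins 5 rose and 1 fell, with Ubqln4 at 0.71 and Rad23b at 0.52. Of 5 activators and inhibitors of the proteasome 2 rose, Psme1 by 0.49 and Psme4 by 0.30, and of 6 other proteasome-bound proteins 2 rose, Txnl1 by 0.52 and the ubiquitin ligase Ube3c by 0.59. Of 10 genes of the NRF1 pathway 1 rose, Nfe2l1 itself, by 0.42 (limma adjusted p = 0.0199). Ubb, which encodes ubiquitin, rose by 0.62. Of the 9 subunits of the COP9 signalosome, a complex built like the lid, 1 rose and 2 fell. Psmd5 was the 1 of 9 assembly chaperones that rose, and of the 3 immunoproteasome subunits none was called. These lists were chosen with earlier results of these libraries known.

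Counts for cell-type and growth markers at the same age are set against the 16.1% of all genes called. Of 10 hepatocyte markers 5 fell in SKO, among them Alb (-1.68) and Apoa1 (-1.19), and their summed level was 358886 to 465014 normalised reads in SKO, against 788831 to 1012212 in WT, with no marker at 0. Of 14 macrophage markers 2 rose, C1qb by 0.91 and Cd5l by 1.08, with a summed level of 7242 to 9455 in SKO, against 3726 to 8465 in WT. Lum rose among 10 stellate markers, Sox9 and Krt23 fell among 6 cholangiocyte markers, and none of 10 lymphocyte markers was called. Of 12 proliferation genes 2 rose, Cdk1 by 0.90 and Ube2c by 0.76. Their part in the proteasome result was not tested.

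IKO liver at 1 month showed a smaller rise. Of the 36 genes 6 rose and none fell, and 9.17% of all genes were called, 4.42% higher and 4.75% lower. Psma6 had 4284, 5345, 4885 and 4998 normalised reads in IKO, against 3510, 3634, 3654 and 3517 in WT. The groups did not overlap, and the difference was 0.44 ± 0.09 (SE, limma adjusted p = 0.000836). Psmd12 of the lid had 705.7, 633.7, 586.5 and 634.2 normalised reads in IKO, against 500.1, 405.8, 463.8 and 521.7 in WT, and it rose by 0.42. Psmb7 had 220.8, 184.1, 198.9 and 209.5 normalised reads in IKO, against 124.8, 71.5, 148.3 and 171.0 in WT, and it rose by 0.61. Both comparisons were free of overlap. Psmc3 (0.40), Psmb4 (0.43) and Psmd3 (0.55) were the others, with adjusted p of 0.0145, 0.019 and 0.0339. The WT libraries are those used for SKO, so the 2 comparisons are not independent.

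This rise was sensitive to scaling and to single libraries. The split was 2 higher and 1 lower with quantile normalisation, and 1 higher and 2 lower with total reads, which moved all genes by -0.12. Without replicate 1 of IKO 2 members were called, and without replicate 2 of WT 3 were. Beside it, 5 of 8 CCT subunits rose and none fell, and 4 of 12 ubiquitin-carrying factors rose and 1 fell. None of the 10 hepatocyte or 14 macrophage markers was called, and the hepatocyte sum was 885010 to 1096069 in IKO, against 788831 to 1012212 in WT.

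At later stages no IKO member was called by limma. At 3, 5 and 8 months 3, 7 and 1 members had an unadjusted p under 0.05, and 0.201%, 1.45% and 0.201% of all genes were called. The smallest p belonged to Psma4 at 3 months (-0.35), Psma2 at 5 months (-0.45) and Psmd14 at 8 months (-0.42), and none of the 3 passed the test. The effect of Ikk loss was not called as differing between stages for any member, with 5 at an unadjusted p under 0.05 and 0.0694% of all genes called. Over the 4 stages the alpha subunit Psma4 fell by 0.23 and Psmb7 and Psmd6 of the lid rose by 0.28 and 0.23, with limma adjusted p of 0.0199, 0.0322 and 0.0437 and 9.04% of all genes called, 3.87% higher and 5.17% lower. With 1, 3 and 5 months alone 6 members were called (9.74% of all genes). The count of 3 ran between 1 and 7 as single libraries were left out. It was 7 without replicate 4 of WT at 3 months and 5 without replicate 2 of IKO at 8 months. It was 1 without replicate 2 or 3 of IKO at 5 months, replicate 2 of WT at 1 or 8 months, or replicate 1 of WT at 3 months.

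Set directly against IKO over the 4 stages, SKO had 3 members higher and none lower, with 22.1% of all genes called, 11.5% higher and 10.6% lower. Psmc4 was higher by 0.20, Psma4 by 0.19 and Psmc3ip by 0.26 (limma adjusted p = 0.0227, 0.0315 and 0.0346). The count was 1 without replicate 3 of IKO at 1 month, replicate 3 of SKO at 1 month or replicate 4 of SKO at 3 months. It was 2 without the SKO library whose Ptpn11 went against its label, where Psmc3ip lost its call (limma adjusted p = 0.0633). With total reads as the scale 22 members were called, where all genes moved by 0.21.

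In BKO liver over the 4 non-tumour stages, 3 of 8 lid genes fell and 1 rose, and 2 of 3 non-ATPase base genes and none of the 6 ATPases fell. Of the 36 genes 7 fell and 1 rose, and 19.6% of all genes were called, 10.6% higher and 9.04% lower. The median of the 36 was -0.09, with 10 above 0. Psmd7, Psmd3 and Psmd11 of the lid fell by 0.29, 0.35 and 0.29, and Psmd2 and Psmd4 of the base by 0.22 and 0.20. In the core Psma3 fell by 0.20 and the chymotrypsin-like catalytic subunit Psmb5 by 0.28. Their adjusted p ran between 0.00318 and 0.0361. Psmd13, also of the lid, rose by 0.28 (limma adjusted p = 0.0129). With total reads as the scale, which moved all genes by -0.07, that call was lost (limma-voom adjusted p = 0.128). Under that scaling 13 members were lower and none higher.

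Psmd13 had 465.1, 577.9 and 489.8 normalised reads in BKO at 1 month, against 363.6, 336.8 and 352.1 in WT. The libraries did not overlap at that age, nor at 3 months, where BKO had 465.6, 430.6 and 467.0 and WT 284.4, 354.0 and 333.2. At 5 months BKO had 295.2, 349.1 and 402.0 and WT 335.4, 419.5 and 321.8, so the groups overlapped. They overlapped at 8 months too, with 420.7, 397.8 and 288.1 in BKO and 335.9, 290.8 and 328.5 in WT. Single stages of 3 against 3 libraries gave few calls. At 1, 3 and 5 months none of the 36 was called by limma, with 5, 5 and 5 at an unadjusted p under 0.05 and 4.37%, 1.54% and 6.44% of all genes called. The smallest p was that of Psmd13 at 1 month (0.50, adjusted p = 0.0651), Psmd7 at 3 months (-0.45) and Psmb6 at 5 months (-0.32).

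In 8-month non-tumour BKO liver 1 member fell, and 4.91% of all genes were called, 3.15% higher and 1.76% lower. It was Psma1, with 31.2, 36.5 and 25.9 normalised reads in BKO, against 42.7, 59.1 and 52.2 in WT. The difference was -0.46 ± 0.14 (SE, limma adjusted p = 0.0455), and the call was lost without replicate 1 or 3 of BKO or 1 or 2 of WT. Of the 36 genes 5 lay above 0, with a median of -0.28, and 16 had an unadjusted p under 0.05. No member was called as differing between stages in BKO by limma, with 5 at an unadjusted p under 0.05 and 0.663% of all genes called. With only 1, 3 and 5 months 5 members were called, 2 higher and 3 lower, where 13% of all genes were called. The median of the 36 was then -0.05, so the count of 7 lower over the 4 stages depended on the 8-month livers.

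Of 10 genes of the NRF1 pathway 3 fell in BKO over the 4 stages, where 9.04% of all genes were called lower. Nfe2l1 fell by 0.36 (limma adjusted p = 0.000131), Ddi2, the protease that activates NRF1, by 0.32, and its partner Mafg by 0.27. The other 7 were not called. The assembly chaperone Psmg2 rose by 0.43, and Ubb rose by 0.31. Among the ubiquitin-carrying factors Ddi2 and Ubqln1 fell, and 1 subunit each of the CCT and COP9 lists fell, Cct8 and Cops7b. No immunoproteasome subunit, activator or other bound protein was called.

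Markers of several cell types were higher in the same livers, where 10.6% of all genes were called higher. Of 10 stellate markers 9 rose, of 6 cholangiocyte markers 5, of 14 macrophage markers 6 and of 10 hepatocyte markers 3, and none fell. Over 4 stages the stellate sum was 2558 to 4866 normalised reads in BKO, against 1675 to 3323 in WT, and the cholangiocyte sum 249.4 to 857.5 in BKO, against 125.7 to 215.9 in WT. The proteasome genes called lower fell in tissue where these markers were higher, and the part of cell composition was not tested.

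In MKO liver 1 gene stood out, Psma5, an alpha subunit of the core. It had 135.9, 101.3 and 128.8 normalised reads in MKO at 1 month, against 54.5, 83.3 and 102.8 in WT. At 3 months MKO had 137.5, 97.2 and 157.9, and WT 107.1, 104.4 and 62.4. The groups overlapped by 1 MKO library at each of these ages. At 5 months MKO had 160.9, 171.1 and 168.1, against 91.9, 70.8 and 104.2 in WT. At 8 months non-tumour MKO had 135.1, 172.8 and 176.9, against 68.7, 97.5 and 92.6 in WT. At both of these ages every MKO library was higher.

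Over the 4 stages Psma5 rose by 0.61 ± 0.11 (SE, limma adjusted p = 0.00218), the 1 member called where 2.71% of all genes were, 1.58% higher and 1.13% lower. The call held in all 8 alternatives and in all 24 fits that left out 1 library. The median of the 36 genes was 0.08, with 28 above 0 and 10 at an unadjusted p under 0.05. By stage, Psma5 differed by 0.50, 0.43, 0.76 and 0.75, and it passed the test at 8 months alone (adjusted p = 0.0435, with 5.74% of all genes called, 3.51% higher and 2.23% lower). That stage call was lost without replicate 2 of MKO or replicate 1 or 3 of WT. At 1, 3 and 5 months no member was called by limma, with 3, 2 and 6 at an unadjusted p under 0.05 and 0.185%, 0.0231% and 0.0463% of all genes called. The stages were not called as different for any member, with 2 at an unadjusted p under 0.05 and 0.339% of all genes called. The count over stages was 3 without replicate 1 of WT at 3 months. It was 2 without replicate 2 of MKO at 5 months or replicate 3 of MKO or WT at 8 months.

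Set directly against MKO, BKO had 14 of the 36 genes lower and none higher over the 4 stages, where 15% of all genes were called, 7.18% higher and 7.86% lower. The median of the 36 was -0.19 and that of all genes 0.01, with 5 above 0. The 14 were 5 of 7 alpha subunits (Psma1, Psma3, Psma5, Psma6 and Psma7), 2 of 4 structural beta subunits (Psmb1 and Psmb2), 1 of 6 ATPases (Psmc2), 2 of 3 other base subunits (Psmd2 and Psmd4) and 4 of 8 lid subunits (Psmd3, Psmd7, Psmd11 and Psmd12). None of the 3 catalytic subunits and none of the 3 chaperones was called.

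Psmd11, a lid subunit known from other species to promote 26S assembly, showed the smallest p. It had 404.7, 337.6 and 401.7 normalised reads in BKO at 1 month, against 505.1, 430.5 and 480.0 in MKO. At 3 months it had 315.9, 340.3 and 472.6 in BKO, against 529.4, 527.2 and 542.8 in MKO, and at 5 months 551.1, 375.9 and 389.7 in BKO, against 690.8, 609.7 and 688.5 in MKO. At 8 months BKO had 391.4, 474.7 and 447.4, and MKO 635.8, 596.5 and 612.2. No BKO library reached an MKO library of its age. The difference was -0.46 ± 0.08 (SE, limma adjusted p = 5.77e-05). The ubiquitin receptor Psmd4 differed by -0.35 ± 0.06, Psma5 by -0.48 ± 0.11 and Psmd3 by -0.36 ± 0.09 (limma adjusted p = 7.55e-05, 0.00261 and 0.0031). The other 10 lay between -0.33 for Psmc2 and -0.18 for Psmd12.

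**Figure D4:**
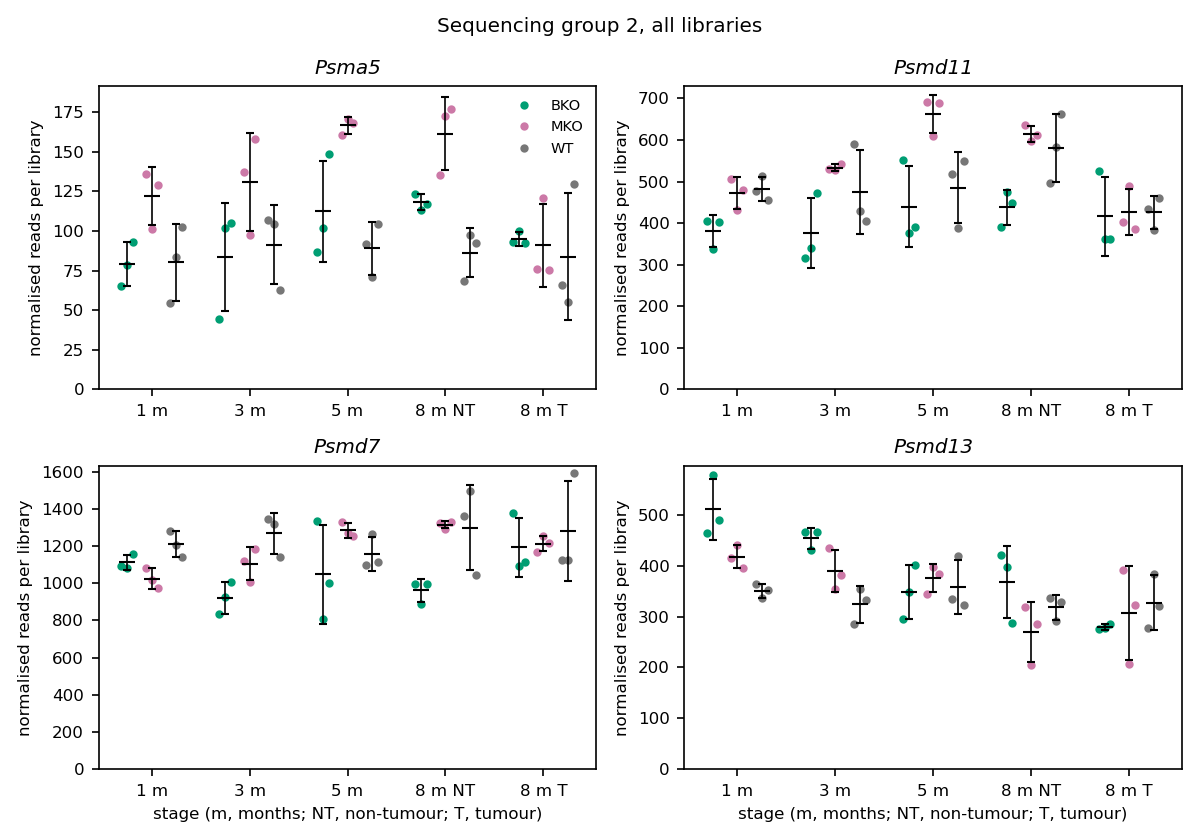
Normalised reads per library of Psma5, Psmd11, Psmd7 and Psmd13 in BKO, MKO and WT of sequencing group 2 at each stage, with 1 point per library and bars for the mean and SD. Psmd11 lies lower in every BKO library than in the MKO non-tumour libraries of its age, and Psma5 lies higher in MKO than in WT at 5 and 8 months.

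The direct count kept between 12 and 16 as single libraries were left out, and it was 22 with total reads as the scale, where all genes moved by -0.12. Beside it Nfe2l1 was lower in BKO than in MKO by 0.31 and Mafg by 0.24, 2 of 10 genes of the NRF1 pathway, and Psmb8 was the 1 of 3 immunoproteasome genes called (-0.43). Of the 10 hepatocyte markers 6 were higher in BKO than in MKO, led by Alb (1.25), with a summed level at 1 month of 1545762 to 1793811 normalised reads in BKO, against 790822 to 890731 in MKO. Of 10 stellate markers 4 and of 6 cholangiocyte markers 3 were higher too. Their part in the difference was not tested.

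In tumours the knockouts barely parted from WT in these genes. No member was called by limma in IKO tumours, where 3.6% of all genes were called and 6 members had an unadjusted p under 0.05. None was called in SKO tumours, where 1.72% of all genes were called and 3 members had an unadjusted p under 0.05. The smallest p in IKO belonged to Psmd4 (0.33, adjusted p = 0.0912), and in SKO to Psmb1 (-0.33, adjusted p = 0.173). Without replicate 1 of the WT tumours 1 member was called in IKO.

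The 1 member called in BKO and in MKO tumours was Psma8, the alpha subunit known from testis. It had 0.581, 0 and 0.518 normalised reads in BKO tumours and 0, 0.461 and 3.24 in MKO tumours, against 68.0, 25 and 0.598 in WT tumours. The third WT tumour was as low as the knockouts, so the groups overlapped, and 2 WT libraries carried the difference. On the deposited scale it was -1.42 ± 0.30 in BKO and -1.29 ± 0.30 in MKO (SE, limma adjusted p = 0.0182 and 0.0114), where 0.548% and 4.03% of all genes were called. Of all genes 0.386% were higher and 0.162% lower in BKO tumours, and 2.99% higher and 1.04% lower in MKO tumours. Both calls were lost without replicate 1 of WT (adjusted p = 0.163 and 0.136). The BKO call was also lost without replicate 2 of BKO or WT, and no member was called in MKO tumours without replicate 1 of MKO. Without replicate 2 of WT 2 members were called in MKO. Limma-voom on recovered reads called neither, and Psma8 was not called with total reads as the scale either. The 1 member called in MKO tumours under that scaling was a different gene, which was higher. Each Psma8 call held in 4 of 7 alternatives.

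Tumours differed from non-tumour liver of the same age and genotype in more members, and more of all genes were called there too. The called share of the 36 genes was 36.1% in IKO, 55.6% in SKO and 55.6% in WT of sequencing group 1. It was 5.56% in BKO, 19.4% in MKO and 27.8% in WT of sequencing group 2. In IKO, MKO and the second WT it lay near the share of all genes given below, and in BKO under it. In IKO 4 rose and 9 fell, where 33.3% of all genes were called, 18.2% higher and 15.1% lower. In SKO 6 rose and 14 fell, with 39.7% of all genes called, 21% higher and 18.7% lower. In the WT of that sequencing group 5 rose and 15 fell, with 42.1% of all genes called, 22.9% higher and 19.2% lower. In BKO 2 rose and none fell, where 14.7% of all genes were called, 8.39% higher and 6.32% lower. In MKO 1 rose and 6 fell, where 17.3% were called, 9.76% higher and 7.56% lower. In the WT of sequencing group 2, 2 rose and 8 fell, where 27.1% were called, 15% higher and 12% lower. Median differences of the 36 genes were -0.14 in IKO, -0.11 in SKO, -0.23 in WT of sequencing group 1, 0.04 in BKO, -0.15 in MKO and -0.19 in WT of sequencing group 2. With total reads as the scale 2 members were lower and none higher in BKO, and 17 lower and none higher in WT of sequencing group 2. The count was 8 in IKO without replicate 2 of its non-tumour livers. In BKO it was 1 without tumour replicate 1 or non-tumour replicate 2 or 3. In MKO it was 2 without tumour replicate 1 or non-tumour replicate 3 and 4 without tumour replicate 2. In that WT it was 4 without tumour replicate 1 and 6 without non-tumour replicate 3.

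Psmd8, a lid subunit, rose in tumours of all 6 sets. IKO tumours had 1397, 1773, 1269 and 1425 normalised reads, against 827.7, 438.2, 781.6 and 610.4 in IKO non-tumour liver. SKO tumours had 1138, 1309, 1365 and 1391, against 577.7, 492.1, 404.0 and 704.0 in non-tumour liver. In WT of sequencing group 1 tumours had 984.8, 1752, 1421 and 1249.7, against 652.7, 629.6, 672.6 and 702.5. Within each genotype all tumours lay above all non-tumour livers. BKO tumours had 1183, 819.1 and 785.4 normalised reads, against 676.2, 732.6 and 636.4 in non-tumour liver. MKO tumours had 1305, 1149.9 and 905.2, against 700.8, 623.3 and 629.8. In WT of sequencing group 2 tumours had 1169.6, 863.1 and 1033, against 727.0, 624.8 and 779.1. Here too the tumours were all higher. The differences were 1.14 ± 0.16 in IKO, 1.24 ± 0.16 in SKO, 0.97 ± 0.16 in WT, 0.41 ± 0.14 in BKO, 0.74 ± 0.14 in MKO and 0.50 ± 0.14 in the second WT (SE, limma adjusted p between 1.91e-08 and 0.0478). With total reads as the scale the calls in BKO and the second WT were lost (adjusted p = 0.408 and 0.229, the highest of ranges that began at 0.0351 and 0.00488), and the BKO call held in 5 of 8 alternatives, that of MKO in 7 and that of the second WT in 6.

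The non-tumour livers of sequencing group 1 stood apart at 8 months, so tumours were also set against 5-month liver. Psmd8 kept its call there in all 6 sets, with differences of 0.50 in IKO, 0.51 in SKO, 0.62 in WT, 0.47 in BKO, 0.80 in MKO and 0.60 in the second WT. Of the 72 tumour calls of single members, 30 kept direction and call against 5-month liver, 26 lost the call and 16 changed sign. Psmc1 fell by 0.95 in IKO, 0.95 in SKO and 1.05 in WT against 8-month liver, and Psmc4 by 0.80, 1.06 and 0.91. In WT Psmc1 had 466.3, 351.4, 483.6 and 458.4 normalised reads in tumours, against 946.6, 1063.2, 956.6 and 800.4 in 8-month non-tumour liver, and 5-month liver had 465.7, 444.6, 449.1 and 479.9. Against 5-month liver the difference of Psmc1 was 0.067 in IKO and 0.026 in SKO. Psmd3 rose by 0.92, 0.89 and 0.69 against 8-month liver in IKO, SKO and WT, and SKO tumours differed from 5-month liver by -0.042. Against 5-month liver 10 members were called in IKO, 13 in SKO, 12 in WT, 6 in BKO, 13 in MKO and 9 in the second WT, where 31.5%, 39.8%, 42.3%, 22.1%, 36.6% and 33.8% of all genes were called. The tumour effect in WT differed between the sequencing groups in 3 members, Psmd3, Psmc1 and Psmc4 (2.32% of all genes).

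**Figure D5:**
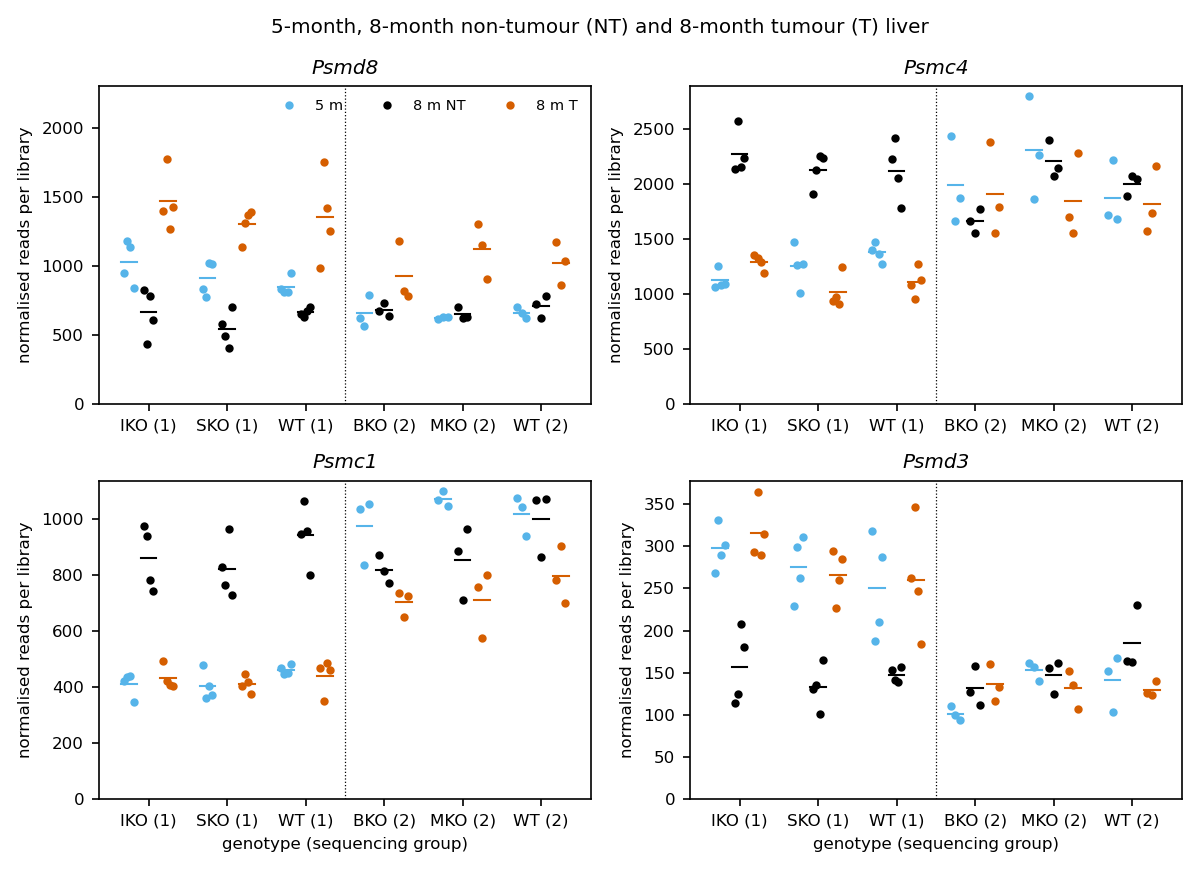
Normalised reads per library of Psmd8, Psmc4, Psmc1 and Psmd3 in 5-month liver, 8-month non-tumour liver and 8-month tumours of each genotype, with 1 point per library, a line at the mean and the sequencing group in brackets. Psmd8 tumours lie above non-tumour liver of both ages on average in all 6 sets, and the 8-month non-tumour livers of sequencing group 1 are apart from 5-month liver in Psmc4, Psmc1 and Psmd3.

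Beside Psmd8, these members were called in sequencing group 2 tumours. In BKO Psmd1 rose by 0.52. In MKO Psma4 fell by 0.76, Psma5 by 0.70, Psmd9 and Psmd11 by 0.51 each, Psmd4 by 0.39 and Psmb3 by 0.37. In WT of that group Psma1 fell by 0.55, Psma4 by 0.53, Psmd2 and Psmb2 by 0.46 each and the catalytic subunits Psmb5 and Psmb6 by 0.59 and 0.34. Psmd4 and Psmd11 fell there by 0.37 and 0.42, and Psma8 rose by 1.01. The tumour effect in each knockout was also set against that in its WT. No member was called by limma in these tests, in which 0.123%, 0.0308%, 0.0308% and 0.131% of all genes were called for IKO, SKO, BKO and MKO. The members at an unadjusted p under 0.05 were 1, 3, 7 and 4. The smallest p belonged to Psmd4 in IKO (0.35), Psma5 in SKO (-0.66), Psma1 in BKO (0.64) and Psmb5 in MKO (0.92), none of which passed. Without replicate 3 of the WT tumours 1 member was called in BKO and 1 in MKO, and without replicate 2 of them 2 in MKO. In these tumours 10 of 12 proliferation genes rose in the first WT and 11 of 12 in the second. Hepatocyte markers rose in 6 and 5 of 10 and fell in 2 and 2. Of all genes 22.9% and 15% were called higher in these comparisons, and 19.2% and 12% lower. The part of these markers in the proteasome differences was not tested.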

How the data were processed

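Mouse liver RNA was made into 3′-end libraries by MAPS and sequenced on a HiSeq2000, per the labels' protocols. Per the submitters' processing notes, STAR 2.7.10a, HTSeq 2.0.2, DESeq2 1.32.0 and the builds GRCm38 and mm10 were used, and their roles are not given in the sources used here. The deposited values, 1 per gene and library, are log2 values with the variance stabilised by the authors. The scale was read from the values, whose floor of 3.8289 stood for 0 reads. Inverting it returned whole reads, within 0.05, for 100.0% of values, and these served for levels, depths and limma-voom. The scale understates differences where reads are few.

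Sequencing groups were fitted apart with limma 3.58.1 in R 4.3.3, with 1 mean per group, moderation with a trend, and Benjamini-Hochberg adjustment over all 12966 genes per comparison. Calls are at an adjusted p below 0.05. A minimum mean of 3 removed no gene. No pair of libraries within a group was identical, and the lowest chi-square per gene was 6.036. Counting error is a lower bound, because reads are not counted by molecule.

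Groups, replicate numbers and sequencing groups came from the labels. The labels number replicates alike across groups without saying what a number shares. Samples of the same number deviated together, with every correlation above 0.1, in 2 of 26 pairs of groups, tumour and non-tumour BKO liver (0.248 to 0.392) and 8-month non-tumour MKO and WT liver (0.153 to 0.35). The fit with the replicate number as a block gave the same calls there. That block gives each replicate number an effect shared by all groups of a sequencing group. It does not model a pairing of these groups alone, and the weight of such a pairing was not tested.

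All 36 genes are accounted for. Full values went to the called members with the smallest p, up to 8 per direction over stages and up to 4 elsewhere, to the 2 with the smallest p where none was called, and to up to 2 genes per list. The members and lists were chosen with earlier results of these data known. Alternatives chosen after seeing the data were scaling to total reads, tumours against 5-month liver, 8-month against 5-month liver, the 3 early stages alone and the difference between both sets of WT. A single gene from these lists was left out and is not reported here.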

Additional observations from a re-analysis of the deposited data

Results flagged for a closer look

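The effect of Shp2 loss differed between the 4 non-tumour stages for 9 members, by limma's F-test with adjustment over all genes. With quantile normalisation 3 members were called, and with total reads as the scale 15. The adjusted p was 0.00178 for Psma6, 0.00405 for Psmc3, 0.0134 for Psmb4, 0.0142 for Psmb1, 0.0169 for Psmc3ip, 0.0215 for Psmb3, 0.0292 for Psmd14, 0.0351 for Psmd1 and 0.0487 for Psmd8. The hepatocyte markers and the most abundant mRNAs moved in SKO liver at 1 month as well, and their part in this was not tested.

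The tumour effect in WT differed between the sequencing groups in 3 members. In 1 limma fit over all libraries, sequencing group 1 minus 2 gave 1.11 for Psmd3, -0.73 for Psmc1 and -0.77 for Psmc4 (adjusted p = 0.00591, 0.016 and 0.0298), where 2.32% of all genes were called. In WT of sequencing group 1, Psmd3 had 262.3, 346.4, 246.8 and 184.6 normalised reads in tumours, against 153.3, 141.3, 139.3 and 156.9 in non-tumour liver. In WT of sequencing group 2 it had 125.8, 123.6 and 139.8 in tumours, against 163.3, 162.2 and 229.9 in non-tumour liver. The step between 5-month and 8-month non-tumour WT liver also differed between the sequencing groups, in 10 members. The sequencing group and what else differed between these animals cannot be told apart.

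Single libraries stood far from the other 3 of their group in 4 of 55 groups examined, and chance gives about 1 in 20. Psmd14 had 208.0 normalised reads in replicate 1 of SKO at 1 month, against 227.5 to 229.9 in the others, which still lay above all WT. Psma6 had 4193 in replicate 4 of SKO at 5 months, against 3439 to 3539. Psmc1 had 351.4 in replicate 2 of the WT tumours of sequencing group 1, against 458.4 to 483.6, and 346.2 in replicate 4 of IKO at 5 months, against 420.9 to 437.0.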

How the results depend on the processing

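Of the called values of single members, 135 were refitted under each general alternative. Without a filter 135 kept direction and call, with the replicate block 134, without a trend 131, with limma-voom on recovered reads 123, with total reads as the scale 107, with quantile normalisation 100 and with only the groups of a comparison 92. Under the stricter filter, which removed Psma8 and Psmc3ip, 129 of 129 did. Leaving out 1 library at a time kept 1355 of 1642. All other rows lost the call in the same direction, except those with a changed sign given here. Where no cause is given, the cause was not tested.

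The replicate block moved 1 call, Psmd1 in SKO at 1 month (0.35, adjusted p = 0.0547), and the count there was 15. With the block BKO tumours against non-tumour liver gave 2 members and MKO at 8 months non-tumour 1, and it changed no other call.

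Counts of called members that moved by over 1.5 times follow. With total reads as the scale they were 1 for IKO and 23 for SKO over the stages, 3 for IKO at 1 month, 0 for SKO at 3 months, 11 at 5 months, 15 for its differences between stages and 22 for SKO against IKO. They were 13 for BKO and 2 for MKO over the stages, 1 for BKO at 3 months, 0 for BKO and MKO in 8-month non-tumour liver, 0 for BKO tumours, 17 for WT tumours of sequencing group 2 and 22 for BKO against MKO. With quantile normalisation they were 3 for IKO at 1 month, 0 for SKO at 3 and at 5 months, 3 for its differences between stages, 1 for SKO against IKO, 2 for MKO over the stages and 1 for BKO tumours against non-tumour liver. With limma-voom they were 2 for SKO at 3 months and 0 for BKO and MKO in 8-month non-tumour liver and against WT in tumours. With the stricter filter, which tests fewer genes, the count was 2 for SKO at 3 months. It was 0 for BKO and MKO tumours because that filter removed Psma8, so its calls were not tested there. Without a trend the count was 0 for SKO at 3 months. With only the groups of a comparison, which leaves fewer libraries to estimate the spread, they were 0 for SKO at 3 months, 1 at 5 months and 0 at 8 months, 1 for BKO at 1 month, 2 for MKO over the stages, and 0 for BKO and MKO in 8-month non-tumour liver, for their tumours against WT and for tumour against non-tumour liver in BKO, MKO and WT of sequencing group 2. With 1, 3 and 5 months alone they were 6 for IKO and 5 for BKO. Against 5-month liver they were 13 for SKO, 12 for WT of sequencing group 1, 6 for BKO and 13 for MKO tumours.

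Signs turned for Psma6, to 0.051 with total reads in SKO at 5 months and to 0.051 with quantile normalisation in SKO tumours. Against 5-month liver they turned in IKO tumours for Psmc1 (0.067), Psmc6 (0.62), Psmb7 (-0.36), Psmc4 (0.20), Psmd7 (0.092) and Psma3 (0.12). In SKO tumours they turned for Psmc3 (0.065), Psmd3 (-0.042), Psmd12 (-0.11), Psmc1 (0.026), Psmc6 (0.28) and Psmb7 (-0.43), and in WT for Psmc6 (0.24), Psmd1 (0.36), Psmb7 (-0.33) and Psma4 (0.58).

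As single libraries were left out, the count ran between 10 and 15 for SKO at 1 month, 0 and 2 at 3 and at 5 months, 0 and 1 at 8 months, 2 and 5 over the stages and 5 and 13 for differences between stages. It ran between 2 and 7 for IKO at 1 month, 1 and 7 over the stages, 0 and 1 for differences between stages, 1 and 4 for SKO against IKO and 12 and 16 for BKO against MKO. It ran between 7 and 10 for BKO and 1 and 3 for MKO over the stages, and 0 and 1 for each in 8-month non-tumour liver. Against WT tumours it ran between 0 and 1 for BKO and IKO and 0 and 2 for MKO. Tumour against non-tumour liver gave 1 to 3 in BKO, 8 to 15 in IKO, 2 to 9 in MKO, 15 to 20 in SKO, 17 to 21 in WT of sequencing group 1 and 4 to 11 in WT of sequencing group 2, and differences of tumour effects 0 to 1 for BKO and 0 to 2 for MKO. Genes with few reads, such as Psma8 and Psmc3ip at a median of 1 read, give no firm size of change.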

Other observations

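Over 34 members, without Psma8 and Psmc3ip, the median correlation between pairs of their deviations from group means was 0.11 over 60 libraries of sequencing group 1 and 0.13 over 45 libraries of sequencing group 2. Of 561 pairs, 25 in the first and 58 in the second lay above 0.5. The closest pairs were Psmb4 with Psmd8 (0.72) in the first and Psmd11 with Psmd3 (0.75) in the second. Other pairs moved in opposite directions, with a lowest correlation of -0.68 in the first and -0.56 in the second. Libraries share depth and size factor in all pairs, and these values are given as a description.

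The inducible subunits, set aside by the symbol rule, were measured in the same livers. In SKO over the 4 stages Psmb8 fell by 0.31 and Psmb9 by 0.41 (limma adjusted p = 0.000968 and 0.00454), of 3 measured. Of the 36 constitutive members 4 rose (11.1%), near the 12% of all genes called higher. Of all genes 10.9% were called lower, and the difference between both sets was not tested. In the same comparison 13 of 14 macrophage markers rose and none fell, 6 of 10 hepatocyte markers fell and none rose, and 4 of 10 lymphocyte markers rose. Psme1, a subunit of the activator often paired with the inducible core, rose by 0.26 (limma adjusted p = 0.00021). Whether these moved for a common reason was not tested.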
